A study of Mus musculus with 7 samples.

Results

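The genes of the microtubule tracks and motors were examined through the histone mark H3K18La, lactylation of lysine 18 on histone H3, at their promoters in the maturing mouse retina. Members were chosen by gene symbol and position only: the kinesin heavy chains named Kif plus a number (except Kif3a and Kif17), the kinesin light chains (Klc), the dynein chains (Dync, Dynl) and the tubulins (Tuba, Tubb, Tubg). Each needed a peak annotated to the promoter of a protein-coding transcript, from 1000 bases before to 500 bases after the transcription start site, and the peak nearest the start site was kept. This gave 46 genes of the 9956 protein-coding genes with a promoter peak. In 44 of them the peak overlapped the start site.

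CUT&Tag, in which an antibody tethers an enzyme to the marked chromatin so that nearby DNA is sequenced, was carried out on papain-dissociated cells from wild-type C57Bl/6J mouse retina. The groups were postnatal day 4 (P4, 2 libraries), day 10 (P10, 2 libraries) and day 28 (P28, 3 libraries), with no treatment. The study calls the replicates biological, but the sources used here do not say how many animals a library pooled nor which animals it came from, so a p-value measures only the spread between these libraries. The enzyme is given as pA-MNase in the labels and as pA-Tn5 in the study's methods. All libraries were of batch 1 apart from P28 replicate 1, the single one of batch 2, so no age could be compared within batch 2.

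Microtubules are polymers of alpha and beta tubulin, and gamma tubulin in its ring complex starts new ones. Most kinesins walk toward the growing plus end and carry cargo outward along axons, whereas cytoplasmic dynein walks toward the minus end, and a second dynein works inside cilia such as the photoreceptor outer segment. A separate group of kinesins builds the spindle and drives cytokinesis, and retinal progenitors still divide in the first days after birth but not in the mature retina.

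Reads in peaks numbered 358971 and 295383 at P4, 199970 and 660740 at P10, and from 1615969 to 8274373 at P28. They were 16.3% and 17.6% of the normalized library size at P4, 36.1% and 52.1% at P10, and 42.4% to 57.1% at P28, and 9011 of the 9956 promoters had a higher fitted level at P28 than at P4. The part of that share in the rises below was examined only by rescaling. Values are given in RPKM (reads per kilobase of peak, scaled by the authors' normalized library size). The members held a median of only 7 reads per gene over both P4 libraries, against 137 over the P28 libraries. At P4, 20 of the 46 were at the floor, meaning 3 reads or fewer in each P4 library. Over all 9956 promoters the medians were 7 and 130 reads, and 3798 were at the floor at P4. A peak had to be found in 2 or more replicates of some age to enter the table. The study's text speaks of 3 replicates per age, whereas the labels give 2 at P4 and at P10, so whether this meant both libraries at those ages is not known. Members at the floor at P4 could hardly have entered through P4, so a higher level later was partly fixed by that rule, and their p-values below are descriptions; of the 17 members called at P28, these were Kif3b, Kif11, Kif23, Kif27, Tuba1b and Tuba1c, and of those called at P10, Dync1h1 and Tuba1b. A member that was not called is not shown to be unchanged. Counting intervals below are exact, at 95%, and cover counting error only.

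Defining markers of the labelled tissue were present. Of 9 genes of retinal neurons and glia, 8 had a promoter peak, and their summed level went from 12.7 and 13.7 RPKM at P4 to 58.1 and 65.1 at P10 and 77.2 to 110.4 at P28. Of 6 genes of dividing progenitors, 3 had one (Mki67, Ccnb1 and Sox2), with sums of 3.33 and 5.93 RPKM at P4, 0 and 2.65 at P10 and 6.90 to 7.91 at P28, and none of them was called. The sum hides Sox2, which was lower in every P28 library (0.48 to 1.22 RPKM) than in either P4 library (1.69 and 1.66). The 3 endothelial markers with a peak summed to 6.86 and 9.77 RPKM at P4 and 3.70 to 5.91 at P28. At P10 they summed to 5.81 and 9.07. Of them, Kdr and Cdh5 were lower in every P28 library than in either P4 library, whereas Cldn5 was higher. The 2 of the pigment epithelium summed to 3.57 and 2.18 at P4, 8.52 and 0 at P10 and 2.20 to 3.26 at P28. None of these 5 endothelial and pigment epithelium markers was called at P28 against P4. Best1, of the pigment epithelium, was called lower at P10. It was also lower in every P28 library (0.54 to 0.64 RPKM) than at P4 (1.42 and 1.24). The other pigment epithelium gene, Rlbp1, gave all of the 8.52 at P10 and is also counted among the neurons and glia. None of the 4 microglial markers had a promoter peak. Of 3 lens markers, 1 had one, Cryaa, which was not called at P28. Cryaa had 1.41 and 2.32 RPKM at P4, 1.40 and 2.45 at P10, and 3.06, 2.72 and 2.55 at P28. In bulk tissue, a change in the share of cells that carry the mark and a change within each cell cannot be told apart.

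Promoter sequence is shown first for the motors and tubulins on which the results turn. RefSeq windows from 250 bases before the start site to 50 bases after it were matched by symbol, with a start site within 500 bases of the peak, for 35 of the 46 members (build GRCm38.p6). Dync1li2, Dync2li1, Dynll2, Kif13b, Kif19a, Kif21b, Kif27, Kif2c, Klc2, Klc3 and Tubb6 had no such window. The motifs searched on both strands were TTTGAA and TTCGAA, forms of the cell cycle homology region found before many genes of dividing cells, CCAAT, the GC box GGGCGG, and TAATCC, the core bound by CRX and OTX factors. None of the 5 contains another. The following 250 bases before the start site are given 5′ to 3′ on the gene's own strand with motif matches on either strand in capitals. They belong to a spindle motor (Kif11, chr19:37376132-37376381, plus strand), 2 axonal motors (Kif1a, chr1:93101875-93102124, minus strand, and Kif3b, chr2:153291166-153291415, plus strand) and the tubulins with the most stable calls (Tuba4a, chr1:75219295-75219544, minus strand, and Tubb3, chr8:123411303-123411552, plus strand).
Kif11: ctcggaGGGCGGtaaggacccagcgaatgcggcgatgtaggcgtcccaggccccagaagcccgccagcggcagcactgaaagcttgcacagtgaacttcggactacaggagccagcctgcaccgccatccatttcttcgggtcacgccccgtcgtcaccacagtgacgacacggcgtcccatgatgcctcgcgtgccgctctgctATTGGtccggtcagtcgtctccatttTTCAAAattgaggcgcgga
Kif1a: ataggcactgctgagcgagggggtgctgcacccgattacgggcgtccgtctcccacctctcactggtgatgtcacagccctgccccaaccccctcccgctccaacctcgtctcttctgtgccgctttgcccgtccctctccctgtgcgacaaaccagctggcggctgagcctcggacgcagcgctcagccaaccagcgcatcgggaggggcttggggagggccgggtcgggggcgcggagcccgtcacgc
Kif3b: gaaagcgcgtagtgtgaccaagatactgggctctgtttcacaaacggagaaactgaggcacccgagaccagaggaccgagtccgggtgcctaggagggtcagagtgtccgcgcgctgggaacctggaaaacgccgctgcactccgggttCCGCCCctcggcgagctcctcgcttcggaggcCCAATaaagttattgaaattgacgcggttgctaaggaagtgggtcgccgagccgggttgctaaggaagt
Tuba4a: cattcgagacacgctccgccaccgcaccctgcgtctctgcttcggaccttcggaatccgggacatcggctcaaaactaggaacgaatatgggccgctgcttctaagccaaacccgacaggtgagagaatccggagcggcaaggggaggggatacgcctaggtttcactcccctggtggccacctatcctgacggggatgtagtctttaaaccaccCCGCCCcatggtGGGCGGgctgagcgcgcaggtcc
Tubb3: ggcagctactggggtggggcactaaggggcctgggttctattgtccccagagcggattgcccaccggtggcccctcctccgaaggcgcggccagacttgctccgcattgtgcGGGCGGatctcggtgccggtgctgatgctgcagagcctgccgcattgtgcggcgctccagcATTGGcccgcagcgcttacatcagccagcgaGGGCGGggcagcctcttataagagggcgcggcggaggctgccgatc

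TTTGAA was present in 3 of the 4 mitotic kinesins with a window (not in Kif18a), in 0 of 6 neuronal kinesins and in 1 of the 31 windows outside the mitotic group, that of Tubb4b. The share was 9.97% among 7416 protein-coding genes with a promoter peak and a window, and 17.9% among all 32851 windows of the table. The 26 bases around the matches are shown with TTTGAA or its reverse complement in capitals, for Kif11 (chr19:37376356-37376381, plus strand), Kif20b (chr19:34922358-34922383, plus strand) and Kif23 (chr9:61946779-61946804, minus strand). With the start site as base 1 and the base before it as -1, the Kif11 match began at -19, and a reversed CCAAT box began at -45. In Kif20b and Kif23 it lay just after the start site, beginning at bases 8 and 14 in Kif20b and at base 3 in Kif23. The Kif20b peak ended before its start site and did not cover the match.
Kif11: tccatttTTCAAAattgaggcgcgga
Kif20b: gccattgTTTGAATTTGAAaaccggg
Kif23: tggcctgTTTGAAatgcgccgggcgg

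The other letters were counted over all member windows. GGGCGG was found in 25 of 35 member windows (71.4%) against 67.9% of the 7416 genes, CCAAT in 10 (28.6%) against 37.6%, TAATCC in 3 (8.57%) against 5.76%, and TTCGAA in 0 against 1.81%. The median GC content of the member windows was 62.3%, beside 62.0% for those genes. Such matches describe the sequence and are not evidence of a bound factor, and the windows of 11 members were not searched.

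H3K18La at the microtubule genes was higher at P28 than at P4 to about the extent seen at all promoters. Of the 46 members, 17 were called higher and 0 lower (37.0%), where 33.4% of all protein-coding promoters were called higher and 0.281% lower (limma, adjusted p under 0.01 over 108253 peaks, of which 18.9% were called higher and 4.21% lower). All 46 had a positive change, from 0.19 to 2.84 on the log2(RPKM + 1) scale. Their median change was 1.42, beside 1.35 over all protein-coding genes. In 41 members every P28 library lay above every P4 library, and 79.8% of all promoters did the same. In 0 members every P28 library lay below, against 4.51% of all promoters. Scaling each library to its own reads in peaks lowered the median of all genes to 0.30 and left 29 of the 46 with a positive change and 3 called. Under that scaling the members' median was 0.54, and over all 108253 peaks 7760 were called higher and 16246 lower. The count of 17 became 6 and 5 without P4 replicate 1 or 2, 9 without P28 replicate 1, 6 without P28 replicate 2 or 3, and 27 without either P10 library. Over all 108253 peaks the number called higher, 20488, likewise ranged from 5644 to 34795 when 1 library was left out. Kif1a, Tuba4a and Tubb3 were called whichever library was left out, although Kif1a lost its call under the scaling to reads in peaks and under quantile normalization and Tubb3 under the former. The other 14 each lost their call without at least 1 library, with adjusted p-values from 0.0101 to 0.0759 there. Relative to the other promoters, 26 of the 46 had a higher percentile at P28 than at P4, against 5395 of 9956 for all genes.

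**Figure D1:**
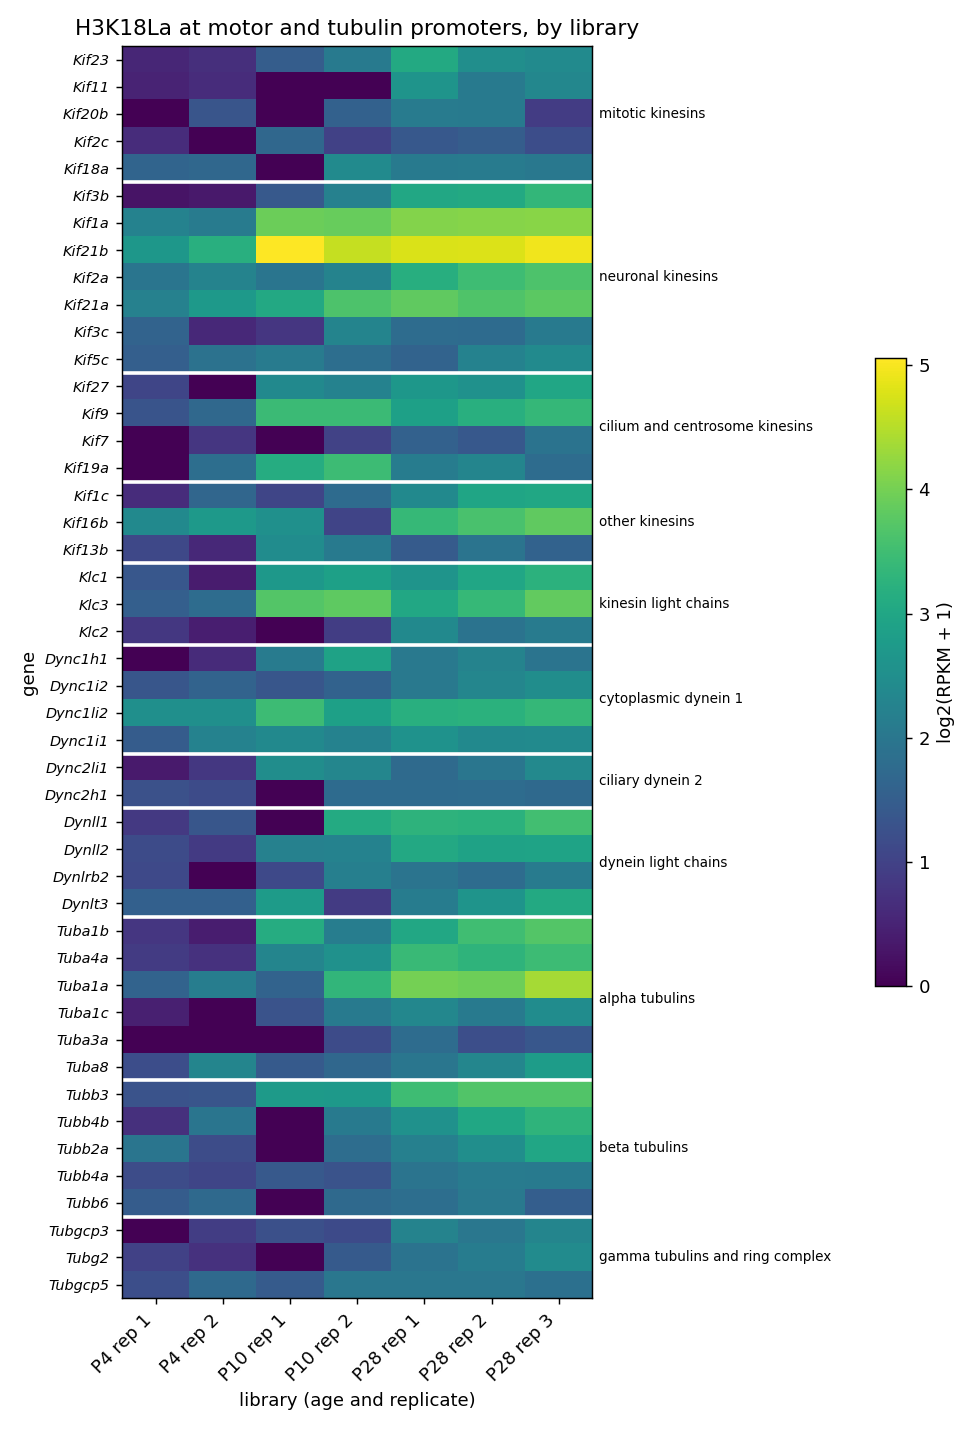
Promoter H3K18La of the 46 members in each library, as log2(RPKM + 1) in colour, with genes in rows grouped by role and the 7 libraries in columns. The columns brighten from P4 to P28, Kif21b is the brightest row in each library, and P10 replicate 1, the shallowest library, holds many dark cells with 0 reads.

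**Figure D2:**
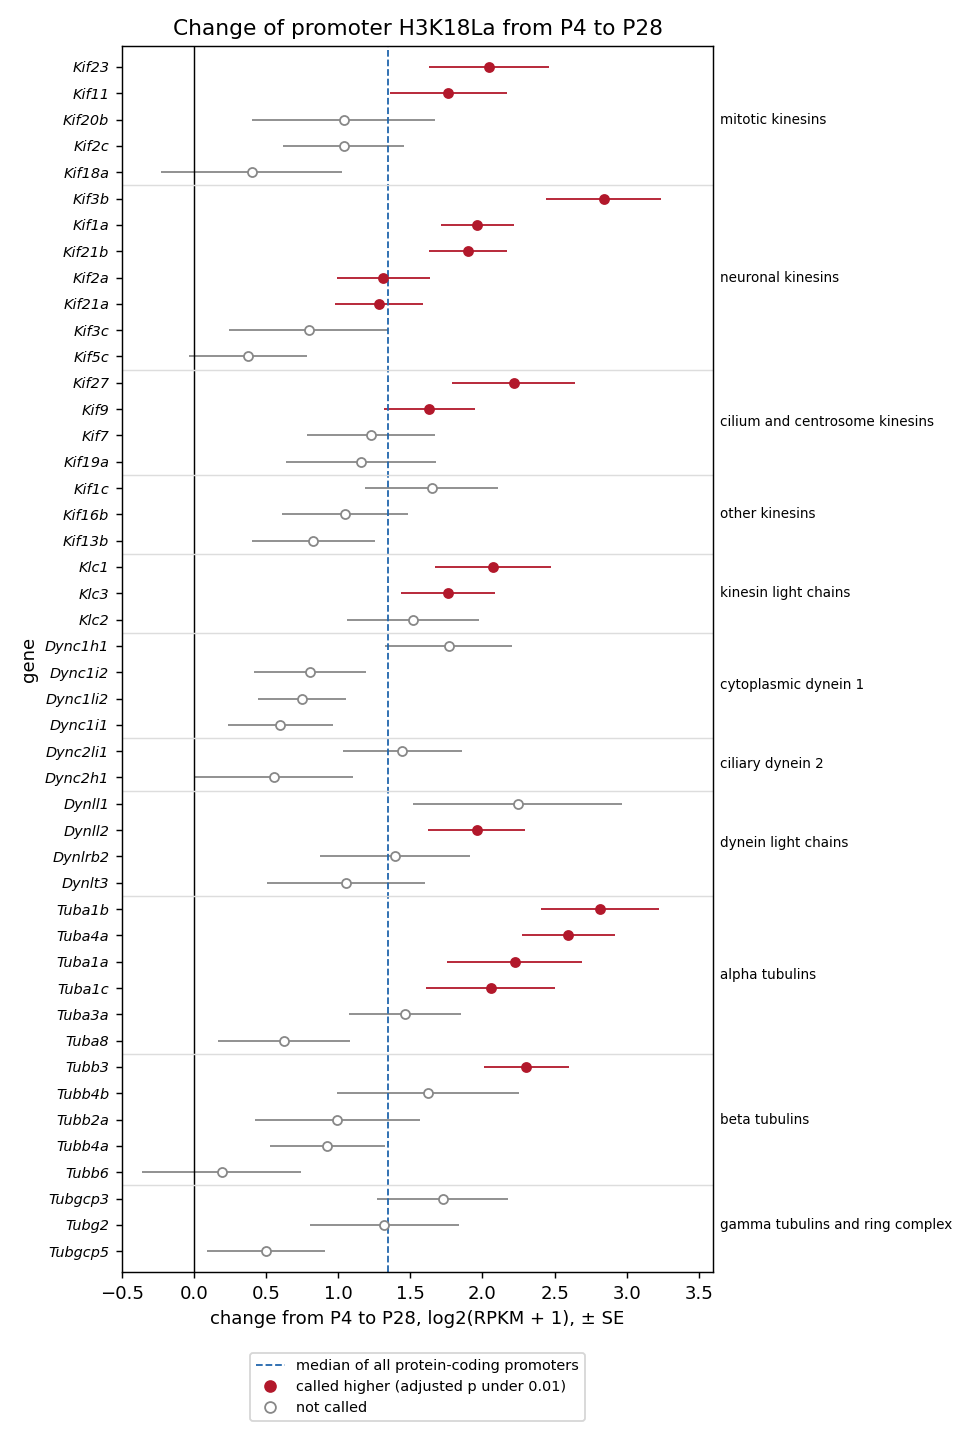
Change of each member from P4 to P28 on the log2(RPKM + 1) scale (points) with its standard error (bars), grouped by role. Filled red points are the 17 members called at an adjusted p under 0.01, open points the 29 others, and the dashed line the median of all protein-coding promoters, 1.35.

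The groups by role that follow hold 2 to 7 genes each. A count of called members in any of them is to be read beside the 33.4% of all promoters called higher at P28, and none was tested against the other promoters.

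The mitotic kinesins with a promoter peak were Kif2c, Kif11, Kif18a, Kif20b and Kif23, which was 5 of the 12 in the list. At P4, 4 of the 5 were at the floor, while Kif18a lay above the median of all promoters (1.54 and 1.63 RPKM) in both libraries. In P28 replicate 1, Kif11 and Kif23 lay above the median of all promoters, 4.55 RPKM. In P28 replicates 2 and 3 both lay below that median, which was 4.87 and 5.59 RPKM. Kif11 (Eg5), the motor that pushes spindle poles apart, had 0.43 and 0.56 RPKM at P4, 0 in both P10 libraries, and 5.16, 3.17 and 4.04 at P28. It was the 1 member that was lower in both P10 libraries than in both P4 libraries, against 8.96% of all promoters. Its reads totalled 2 at P4 and 0 at P10, so a difference between those ages was not detectable at this depth. Its peak lay at chr19:37375503-37376570. Its change from P4 to P28 was 1.76 ± 0.41 (SE, limma adjusted p = 0.00737), and the pooled ratio of reads was 7.57 with an interval from 2.04 to 63.3.

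Kif23 (MKLP1), a motor of the central spindle in cytokinesis, had 0.46 and 0.60 RPKM at P4, 1.81 and 3.16 at P10, and 7.36, 4.62 and 4.33 at P28. The 3 ages did not overlap, and the change from P4 to P28 was 2.05 ± 0.42 (SE, limma adjusted p = 0.00393), with a pooled ratio of 9.59 (2.60 to 80.0). A second Kif23 promoter peak, at -836 bases from the start site, changed by 1.13 with an adjusted p of 0.0678 in the same fit. Its P28 levels, 4.83, 5.82 and 4.09 RPKM, were like those of the first peak, and its P4 levels, 1.79 and 1.57, were higher. Kif11 and Kif23 both lost their calls without any 1 of the P4 or P28 libraries, under the scaling to reads in peaks, under median centring and with a replicate block. Kif11 also lost it with a pseudocount of 0.1, and Kif23 when its promoter peaks were averaged (change 1.59, adjusted p = 0.0140).

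The other mitotic kinesins were not called. Kif18a, which dampens chromosome movements at the metaphase plate, had 2.11 and 2.21 RPKM at P4, 0 and 4.38 at P10, and 3.16, 3.30 and 3.04 at P28, a change of 0.40 ± 0.63 (SE). Its peak also covered a start site of Mettl15, so the signal cannot be assigned to Kif18a alone. Kif20b (MPP1), a cytokinesis motor, had 0 and 1.503 RPKM at P4, 0 and 1.99 at P10, and 3.30, 3.25 and 0.87 at P28, so that P4 and P28 overlapped. Kif2c (MCAK), which removes tubulin from microtubule ends at kinetochores, had 0.56 and 0 RPKM at P4, 2.23 and 0.97 at P10, and 1.62, 1.82 and 1.28 at P28, with 1 read in all at P4. Both had a change of 1.04, and their standard errors were 0.64 and 0.42. With P4 set at 3 reads, the change was -0.61 for Kif20b and -0.20 for Kif2c, so its sign depended on the floor.

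The neuronal kinesins with a promoter peak were Kif1a, Kif2a, Kif3b, Kif3c, Kif5c, Kif21a and Kif21b, 7 of the 10 in the list. At P28, 5 of the 7 were called higher than at P4, as were 2 of the 5 mitotic kinesins and 33.4% of all promoters, and the difference between the lists was not tested. Kif1a, the fast carrier of synaptic vesicle precursors, had 3.75 and 3.28 RPKM at P4, 14.1 and 13.7 at P10, and 16.4, 16.5 and 16.9 at P28. The P10 libraries were already close to the P28 libraries and far above the P4 libraries. The change was 1.97 ± 0.25 (SE, limma adjusted p = 4.42e-04) to P28 and 1.72 ± 0.28 (adjusted p = 0.00206) to P10. Under the scaling to reads in peaks these became 0.63 and 0.58 (adjusted p = 0.0687 and 0.130), and under quantile normalization 0.69 and 0.56 (adjusted p = 0.0574 and 0.179), so that both calls were lost. The call at P10 was also lost without P4 replicate 2.

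Kif21b, a dendritic motor that also limits microtubule growth, had the highest mean level of all members at P28. It had 5.41 and 8.13 RPKM at P4, 32.3 and 23.5 at P10, and 26.1, 26.8 and 29.98 at P28. The P10 libraries were already at the P28 level: the change to P10 was 1.90 ± 0.30 (SE), that to P28 was 1.90 ± 0.27, and the difference between P28 and P10 was 0.00 ± 0.27. It ranked in the 98.4 percentile at P4 and the 99.1 percentile at P28 (means over libraries), and its call for either age was lost without P4 replicate 1, under the scaling to reads in peaks and under quantile normalization. Its relative Kif21a, which anchors at the cell cortex, had 3.70 and 5.55 RPKM at P4, 7.34 and 11.5 at P10, and 13.1, 11.7 and 12.7 at P28. Its change of 1.28 ± 0.31 (SE, adjusted p = 0.0085) turned to -0.08 under the scaling to reads in peaks and to -0.15 under quantile normalization.

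Kif3b, a subunit of the kinesin-2 motor used in axons and cilia, had the largest fitted change of all members with a pseudocount of 1. With the genes at the floor set to 3 reads at P4, its change was 2.37, below Tuba4a (2.60) and Tuba1b (2.53). Tuba1b was also ahead of it without P4 replicate 1 (3.01 against 2.80) and without P28 replicate 1 (3.00 against 2.90). Kif3b had 0.21 and 0.28 RPKM at P4, from 1 read in each library, 1.66 and 3.63 at P10, and 7.14, 7.42 and 9.24 at P28. The ages did not overlap, the change was 2.84 ± 0.40 (SE, limma adjusted p = 6.47e-04), and the pooled ratio of reads was 32.7 with an interval from 9.01 to 271. Only leaving out P4 replicate 1 took its call away among 15 alternatives (adjusted p = 0.0108). Kif2a, which trims collateral axon branches by taking microtubules apart and also acts at the spindle, had 2.91 and 3.82 RPKM at P4, 2.89 and 3.78 at P10, and 7.98, 10.2 and 11.5 at P28. The P4 and P10 values were close and all P28 libraries lay above them, with a change from P4 of 1.31 ± 0.32 (SE, adjusted p = 0.00984). A second Kif2a promoter peak at chr13:106996422-106997340 changed by 1.93 with an adjusted p of 0.0280, and the call on Kif2a was lost when its peaks were averaged and under 10 other alternatives.

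Kif3c and Kif5c did not pass the test. Kif3c, an alternative partner of Kif3a in kinesin-2, had 2.05 and 0.49 RPKM at P4, 0.74 and 3.88 at P10, and 2.47, 2.42 and 3.25 at P28, a change of 0.79 ± 0.55 (SE). Kif5c, a neuron-enriched heavy chain of conventional kinesin, had 1.87 and 2.74 RPKM at P4, 3.31 and 2.53 at P10, and 2.04, 3.72 and 4.36 at P28, a change of 0.38 ± 0.41 (SE). The ages overlapped in Kif5c, and its change became negative under each of the 3 other scalings.

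In every library the median neuronal kinesin ranked above the median mitotic kinesin. The median percentile among the 9956 promoters was 80.6 and 83.3 for neuronal kinesins at P4, against 14.0 and 16.8 for mitotic kinesins. At P10 the pairs of medians were 60.8 against 13.4 and 57.9 against 31.3. At P28 they were 75.9 against 34.4, 82.4 against 30.1 and 81.3 against 22.5. In P10 replicate 1 the mitotic median was 0 RPKM, so its 13.4 is the rank shared by promoters with 0 reads. The mitotic peaks held 8 and 7 reads in all at P4 and 2 in P10 replicate 1. The ranges overlapped, since Kif3b was among the lowest promoters at P4 and Kif3c and Kif5c were low at P28. The neuronal peaks were also wider, with a median of 2169 bases against 998, and RPKM, from which the rank was taken, is per length. The P10 neuronal medians of 60.8 and 57.9 lay below those of the other 5 libraries.

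**Figure D3:**
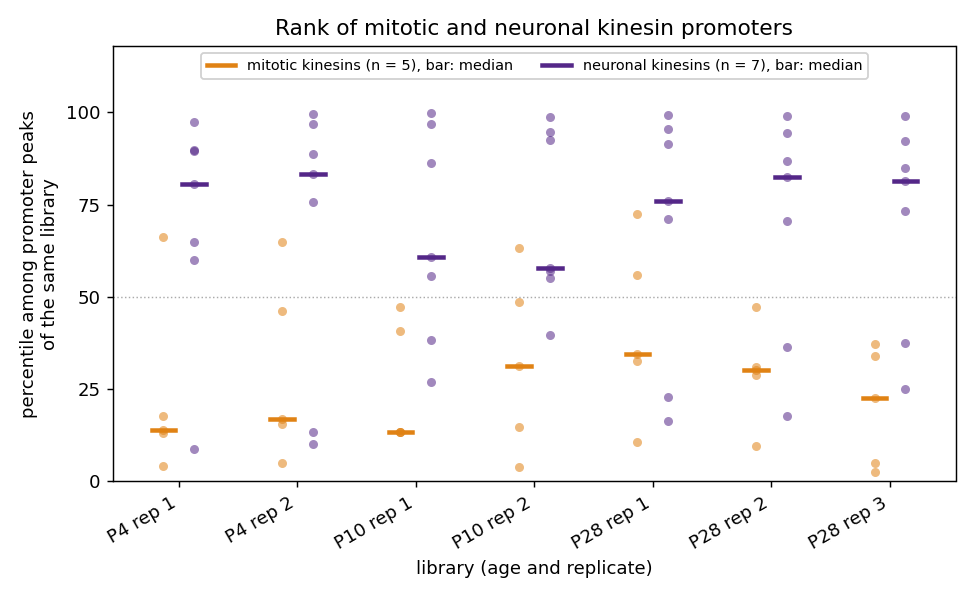
Percentile of each mitotic (orange) and neuronal (purple) kinesin promoter among the 9956 promoters of the same library, with the median of each group as a bar and the 7 libraries along the horizontal axis. The neuronal median is above the mitotic median in each library, from 57.9 to 83.3 against 13.4 to 34.4, and single genes of the groups overlap. The 13.4, in P10 replicate 1, is the rank shared by promoters with 0 reads.

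Whether mitotic or neuronal kinesins gained more could not be decided. Between P4 and P28 the median change was 1.04 for the mitotic and 1.31 for the neuronal kinesins, both under the median of all genes, and they differed by 0.28. With the genes at the floor set to 3 reads at P4, the medians were 0.40 and 1.31. The difference changed sign with a pseudocount of 0.1 (-1.17), the scaling to reads in peaks (-0.55), quantile normalization (-0.54) and voom on the recovered reads (-0.04), and without P4 replicate 1 (-0.05), P4 replicate 2 (-0.17) or P28 replicate 3 (-0.16). Inside each library, the neuronal minus the mitotic median on the log2 scale was 1.43 and 1.42 at P4, 2.11 and 0.71 at P10, and 1.06, 1.39 and 1.63 at P28. In P10 replicate 1 the mitotic median was 0, so the 2.11 is the neuronal median alone and no measured difference. The range at P28 included the P4 values. The dividing-progenitor markers, given above, did not move together, and the part of cell composition in the mitotic values was not tested.

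Some motors of both lists carried a promoter peak that the rule left out. Of 79 genes of the family in the GENCODE M21 annotation of GRCm38, 33 had no member peak: 15 had a peak in the promoter window that was annotated to another gene, transcript type or feature, 12 had peaks elsewhere only and 6 had none (Dynlt1a, Dynlt1b, Dynlt1c, Dynlt1f, Kif5a and Tubb1). The mitotic Kif22 and the neuronal Kif1b each had a promoter peak on a retained-intron transcript. Kif22 had 2.41 and 1.05 RPKM at P4, 1.59 and 5.57 at P10, and 9.73, 7.54 and 10.5 at P28, a change of 1.94 (limma adjusted p = 0.00759). Kif1b, a carrier of mitochondria and synaptic vesicle precursors, had 1.79 and 1.342 RPKM at P4, 9.14 and 10.6 at P10, and 11.2, 18.1 and 19.2 at P28, a change of 2.71 (adjusted p = 3.13e-04). With both added, an alternative chosen after the data were seen, the medians were 1.40 for the mitotic and 1.61 for the neuronal kinesins.

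Among the kinesins of cilia and centrosomes, 2 of 4 were called higher at P28 (33.4% over all promoters). Kif9 and Kif19a were higher in both P10 libraries than in any P28 library. Kif9, a kinesin of motile cilia, had 1.49 and 2.28 RPKM at P4, 9.85 and 9.90 at P10, and 6.30, 8.19 and 9.33 at P28. Its change was 1.63 ± 0.32 (SE, limma adjusted p = 0.00317), and its peak also covered a start site of Klhl18. Kif27, a relative of the hedgehog pathway kinesin Kif7, had 1.08 and 0 RPKM at P4, 4.27 and 3.73 at P10, and 5.38, 4.90 and 6.95 at P28, a change of 2.22 ± 0.42 (SE, adjusted p = 0.00290). Kif19a, which sets the length of cilia, had 0 and 2.55 RPKM at P4, 7.70 and 10.1 at P10, and 3.36, 3.93 and 2.46 at P28. Both its P10 libraries were above all others, while P4 and P28 overlapped, and no contrast of it passed the test (adjusted p = 0.0103 for P10 against P4).

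The other kinesins, Kif1c, Kif13b and Kif16b, were not called, with a median change of 1.05. Kif13b, a carrier of membrane proteins, had 1.13 and 0.49 RPKM at P4, 4.49 and 3.27 at P10, and 1.74, 2.85 and 2.00 at P28, so that it too was highest at P10. Kif1c shared its peak with a start site of Inca1.

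Of the 3 kinesin light chains, which join conventional kinesin to its cargo, Klc1 and Klc3 were called at P10 as well as at P28. Klc1, the main neuronal light chain, had 1.60 and 0.30 RPKM at P4, 5.45 and 6.35 at P10, and 5.15, 6.93 and 8.52 at P28. Klc3 had 1.88 and 2.47 RPKM at P4, 11.9 and 13.03 at P10, and 7.16, 9.45 and 13.4 at P28. Their changes to P28 were 2.07 ± 0.40 (SE, limma adjusted p = 0.00319) and 1.76 ± 0.33 (adjusted p = 0.00251). A second Klc3 promoter peak at the start of another transcript was also called, with a change of 2.72. Klc2 was not called in any comparison, with 0.76 and 0.33 RPKM at P4, 0 and 0.88 at P10, and 4.25, 2.78 and 3.28 at P28. Its change of 1.52 ± 0.46 (SE) missed the threshold, with an adjusted p of 0.0238.

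Of the 4 chains of cytoplasmic dynein 1 and the 2 of ciliary dynein 2, 0 were called at P28, against 33.4% of all promoters, too few genes to set them apart. The heavy chain Dync1h1, the motor subunit itself, was the 1 member called at P10 but not at P28. It had 0 and 0.55 RPKM at P4, from 1 read in all, 3.30 and 6.49 at P10, and 3.12, 3.76 and 2.84 at P28. The change was 2.19 ± 0.48 (SE, limma adjusted p = 0.00735) to P10 and 1.76 ± 0.44 (adjusted p = 0.0109) to P28, and the difference between P28 and P10 was -0.43 ± 0.44 (SE). The intermediate chain Dync1i1, which joins the motor to dynactin, had 1.79 and 3.76 RPKM at P4, 4.26 and 3.72 at P10, and 4.96, 4.26 and 4.35 at P28, a change of 0.60 ± 0.37 (SE). The median change of the 4 dynein 1 chains was 0.78, under the 1.35 of all genes. In ciliary dynein 2, which returns cargo from the tip of the cilium, the heavy chain Dync2h1 had 1.39 and 1.22 RPKM at P4, 0 and 2.41 at P10, and 2.41, 2.45 and 2.29 at P28, a change of 0.55 ± 0.55 (SE).

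Of the dynein light chains, small subunits that hold the complex together, 1 of 4 was called (33.4% over all promoters). Dynll2 had 1.23 and 0.81 RPKM at P4, 3.67 and 3.74 at P10, and 7.29, 6.50 and 6.67 at P28. Its ages were separate and ascending, and its change was 1.96 ± 0.34 (SE, limma adjusted p = 0.00174). Dynlt3 changed least, with 1.95 and 1.92 RPKM at P4, 5.80 and 0.84 at P10, and 3.37, 5.13 and 7.40 at P28, a change of 1.05 ± 0.55 (SE).

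Of the alpha tubulins, 4 of 6 were called. Their median change was 2.14, and 1.66 with the 3 genes at the floor set to 3 reads at P4, beside 1.35 and 1.06 over all promoters, of which 33.4% were called. Tuba1b, a widely used alpha tubulin, had 0.73 and 0.32 RPKM at P4, 7.76 and 3.39 at P10, and 7.19, 10.3 and 11.97 at P28. Every P10 and P28 library was above both P4 libraries, whose reads numbered 4, and the change was 2.81 ± 0.41 (SE, limma adjusted p = 7.60e-04). Tuba4a, the alpha tubulin encoded without a C-terminal tyrosine, had 0.83 and 0.65 RPKM at P4, 3.95 and 4.89 at P10, and 9.76, 8.75 and 10.1 at P28. The 3 ages were separate, the change was 2.60 ± 0.32 (SE, adjusted p = 3.75e-04), and it was the 1 member called under each of the 15 alternatives to the test. The pooled ratio of its reads was 12.2, with an interval from 6.16 to 28.4.

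Tuba1a, the main alpha tubulin of developing neurons, was among the 3 highest members at P28. It had 2.07 and 3.402 RPKM at P4, 2.06 and 8.99 at P10, and 14.96, 14.4 and 19.7 at P28, a change of 2.22 ± 0.47 (SE, limma adjusted p = 0.00470). The P10 libraries disagreed, and the lower one rested on 1 read. Its peak also covered a start site annotated to Gm49450. The peaks of Tuba1a, Tuba1b and Tuba1c lie within 97.4 kb at chr15:98933116-99030483, and Tuba1c was called as well. Tuba8, in contrast, had 1.28 and 3.91 RPKM at P4, 1.69 and 2.21 at P10, and 2.95, 3.97 and 5.98 at P28, a change of 0.62 ± 0.46 (SE) with overlapping ages. The coding parts of the alpha tubulin genes are closely similar, so reads there may be split between copies.

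Of the beta tubulins, 1 of 5 was called, Tubb3 (33.4% over all promoters). Tubb3 (beta III tubulin), a widely used marker of neurons, had 1.45 and 1.52 RPKM at P4, 5.76 and 5.53 at P10, and 10.2, 11.8 and 11.9 at P28. Replicates were close and the ages separate, with a change of 2.30 ± 0.30 (SE, limma adjusted p = 4.25e-04) to P28 and 1.42 ± 0.32 (adjusted p = 0.00836) to P10. The call at P28 was lost only under the scaling to reads in peaks. Tubb6 had the smallest change of all members, with 1.78 and 2.33 RPKM at P4, 0 and 2.31 at P10, and 2.56, 3.12 and 1.86 at P28, a change of 0.19 ± 0.55 (SE). None of Tubg2, Tubgcp3 and Tubgcp5, of gamma tubulin and its ring complex, was called. Tubgcp5 had 1.31 and 2.30 RPKM at P4, 1.74 and 3.04 at P10, and 3.03, 3.02 and 2.66 at P28, a change of 0.50 ± 0.41 (SE).

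**Figure D4:**
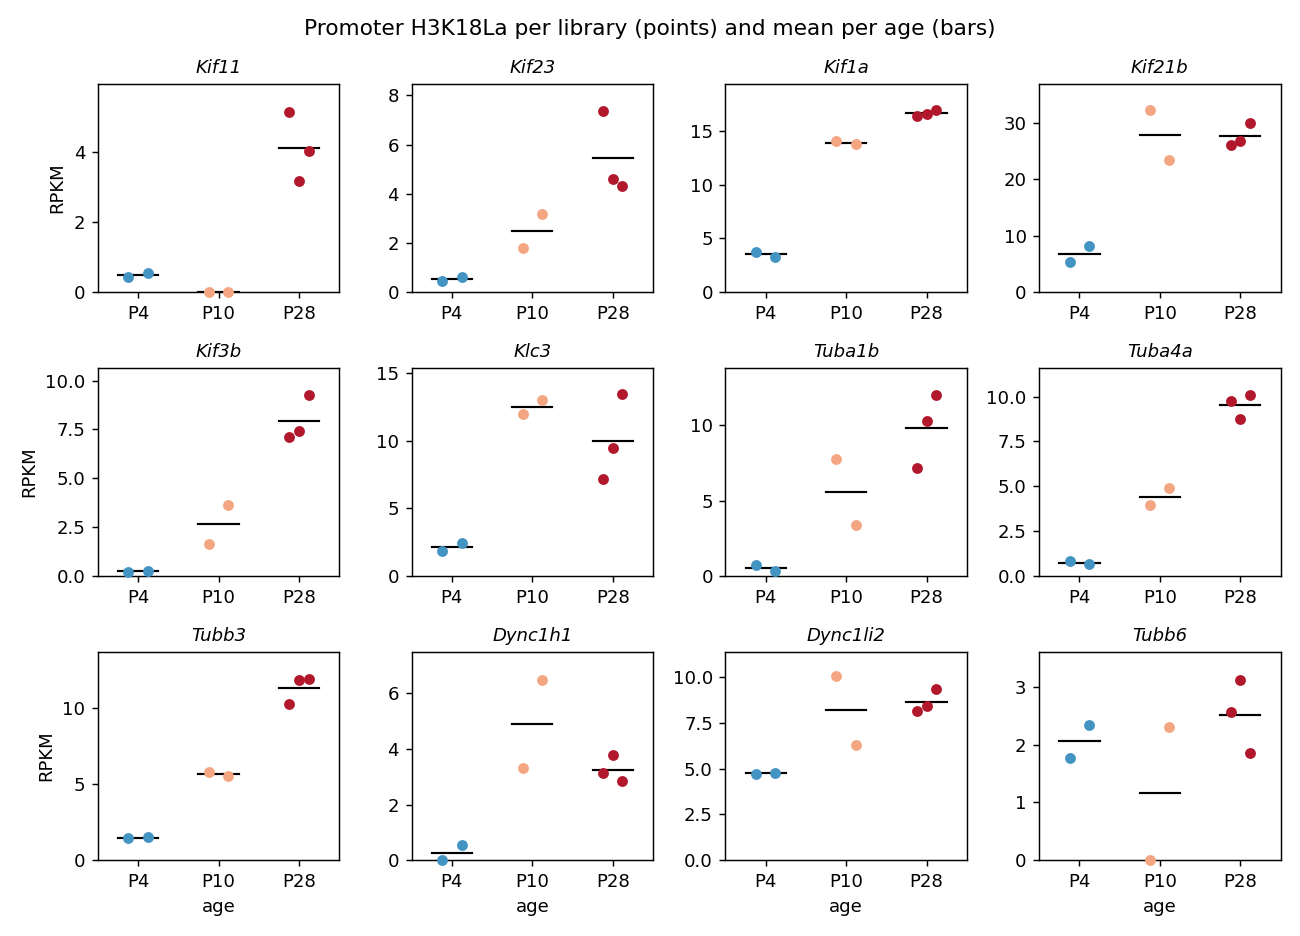
RPKM of 12 members in each library (points) with the mean per age (bars), each panel on its own axis from 0. Kif1a, Kif21b, Klc3 and Dync1h1 are near or above their P28 level by P10, Kif3b, Tuba4a and Tubb3 have ages that ascend without overlap, and Kif11 has 0 reads in both P10 libraries.

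By P10, 9 of the 46 members were called higher than at P4 and 0 lower (19.6%), against 11.6% and 0.864% of all promoters. The 9 were Kif1a, Kif21b, Kif9, Klc1, Klc3, Dync1h1, Tuba1b, Tuba4a and Tubb3. The median change of the members was 0.58, beside 0.54 for all genes, with 34 positive and 12 negative. In 22 members both P10 libraries lay above both P4 libraries, against 46.1% of all promoters, and in 1 (Kif11) both lay below, against 8.96%. None of the 9 kept its call whichever library was left out. The count fell to 1 without P4 replicate 1, 2 without P4 replicate 2, 3 to 5 without P10 replicate 2 or any 1 of the P28 libraries, and 0 under the scaling to reads in peaks and under quantile normalization. Over all 108253 peaks, the number called higher at P10, 12320, became 4706 scaled to reads in peaks and 4419 under quantile normalization. The P10 and P28 comparisons share the P4 libraries.

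Between P10 and P28, 0 members were called by limma, as were 0% of all protein-coding promoters and 2 of all 108253 peaks (0.00185%). At an unadjusted p under 0.05 the test gave 16 of the 46 members and 3935 of the 9956 promoters, and voom on the recovered reads called 1. Without P10 replicate 2 the count was 10, and over all 108253 peaks 14054 were then called higher and 2453 lower. The 46 had a median change of 0.80, beside 0.74 for all genes. All P28 libraries lay above both P10 libraries in 24 members, against 55.1% of all promoters. They lay below in 3 (Kif9, Kif13b and Kif19a), against 5.69%. At P10, 16 of the 46 were at the floor, with 3 reads or fewer in each library, as were 3934 of the 9956 promoters.

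Other genes of the pathway, which were not members, are read against the 33.4% of all promoters called higher and their median change of 1.35. In dynactin and the motor adaptors, 6 of the 16 with a promoter peak (of 23 listed) were called higher at P28 (37.5%) and 0 lower, with a median change of 1.70. In the microtubule-associated proteins, 10 of 20 (of 22) were called higher and 0 lower, with a median of 1.66 and 1 negative change. In the spindle and cytokinesis list, 4 of 15 (of 21) were called higher (26.7%) and 0 lower, with a median of 1.27, and 11 of the 15 were at the floor at P4. None of the 3 axonemal dyneins with a promoter peak was called, and their changes ran from -0.90 to 0.61.

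Outside promoters, the genes of 29 members held 140 further peaks, and 39 of these (27.9%) were called higher at P28 and 2 lower, against 16.6% and 4.84% of all 91109 non-promoter peaks. Their median change was 1.11, beside 0.54. These genes were chosen for having a promoter peak, which was not required for the 91109. With family genes that had no member peak included, 51 genes held 286 such peaks. Of these, 68 (23.8%) were called higher and 4 lower, with a median change of 0.88. Of the 140, the 7 neuronal kinesins held 60, of which 20 were called higher and 0 lower. The 5 mitotic kinesins held 3: an exon peak of Kif2c was called higher, with 0 at P4, 5.89 and 5.15 RPKM at P10 and 2.61 to 3.997 at P28, and a distal peak assigned to Kif20b was called lower, with 2.66 and 2.33 RPKM at P4, 0 at P10 and 0 to 1.01 at P28. An exon peak of Kif23 was not called. Peaks of 1 gene share a locus and are not independent of each other, and a distal peak is assigned to the nearest gene only.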

How the data were processed

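H3K18La CUT&Tag was measured in 7 retina libraries. The authors mapped reads to GRCm38 with nf-core/cutandrun and called peaks with MACS. Peaks seen in at least 2 replicates were merged, annotated with ChIPseeker 1.34.1 and counted with csaw, and the authors deposited normalized RPKM per peak, whose scaling came from wide genomic windows. A deposited table of the authors' own edgeR 3.40.2 comparisons (log2 fold changes against P4, p-values, FDR, group means) was not used. Multiplying RPKM by peak width gave whole reads for 100% of values (tolerance 0.01). These reads served for depth, ratios, the floor and the alternatives with voom and with P4 set at 3 reads.

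Here log2(RPKM + 1) of all 108253 peaks was fitted with limma 3.58.1 (R 4.3.3, variance trend, 7 libraries, no covariate), after a test on simulated data. Calls were made below 0.01 after Benjamini-Hochberg adjustment of p. Of peaks equally near a start site the wider was kept. A fold change on this scale understates low peaks, and a fitted change from a gene at the floor (3 reads) depends on the pseudocount of 1 and is no bound. Pooled ratios divide summed reads by summed normalized library sizes.

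Members and lists were chosen with earlier results of these data known, so lists carry no test. Named members were all mitotic and neuronal kinesins. In each other role, the 3 called members with the largest rise to P28, any called lower or with a negative change, and the 1 with the smallest change were named. Members called at P10 only or between P10 and P28, and the 3 highest at P28, were added. A member outside this rule was named after its values were seen. Alternatives covered pseudocount, filter, scaling, voom, a replicate block, each library left out, peak choice and threshold.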

Additional observations from a re-analysis of the deposited data

How the results depend on the processing

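The depth at P4 limits most statements: 20 of 46 members had 3 reads or fewer in each P4 library. The same held for 3798 of all 9956 promoters. Without 1 P4 or P10 library, the lone sample of that age was assumed to vary like the other ages. No alternative called a member lower at P28 than at P4. The count of members called higher at P28 than at P4, 17, became 10 with a pseudocount of 0.1, 3 with libraries scaled to reads in peaks, 11 with median centring and 9 with quantile normalization. It ranged from 5 to 27 when 1 library was left out: 6 and 5 without P4 replicate 1 or 2, 27 without either P10 library, 9 without P28 replicate 1 (batch 1 alone) and 6 without P28 replicate 2 or 3. The P10 count, 9, became 0 with either scaling to reads in peaks or quantile normalization, 16 at a threshold of 0.05, and 1 to 8 when 1 library was left out. The count between P28 and P10, 0, became 1 with voom, 5 at 0.05, and 0 to 10 when 1 library was left out. The calls over all 108253 peaks shifted too. The number higher at P28 than at P4, 20488, became 13861 with a pseudocount of 0.1 and 7760 scaled to reads in peaks. It became 14172 with median centring and 13683 with quantile normalization. The number called lower, 4553, became 1536, 16246, 10724 and 14636 in the same order. The cause of these shifts was not tested.

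Deviations of same-numbered libraries correlated at -0.00 to 0.05. With 2 libraries at P4 and at P10 and few reads per peak, this cannot show whether the replicate numbers pair libraries. With a replicate block, the counts were 8 at P28, 5 at P10 and 0 between P28 and P10, the mitotic and neuronal median changes were 1.43 and 1.27, and their difference was -0.16.

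The mitotic median change, 1.04, became 2.69 with a pseudocount of 0.1, 1.22 with the filter on low values, 0.55 scaled to reads in peaks, 0.51 with median centring, 0.71 with quantile normalization, 1.59 with voom, 0.40 with P4 set at 3 reads and 1.40 with other transcript types added (chosen after the data were seen). Leaving out 1 library gave 0.97 to 1.70. The neuronal median, 1.31, became 1.52, 1.61, -0.00, 0.79, 0.17 and 1.55 under the first 6 of these, 1.62 with all promoter peaks averaged and 1.61 with other transcript types added, and 1.27 to 1.52 with 1 library left out. The difference, 0.28, became -1.17 with a pseudocount of 0.1, -0.55 scaled to reads in peaks, -0.54 with quantile normalization, -0.042 with voom, 0.59 with peaks averaged, 0.91 with P4 set at 3 reads, and -0.17 to 0.42 with 1 library left out.

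Of 31 named members, 12 turned negative in P28 against P4 when scaled to reads in peaks: Dync1i1 -0.62, Dync2h1 -0.48, Dynlt3 -0.13, Kif13b -0.045, Kif18a -0.77, Kif21a -0.079, Kif2a -0.0012, Kif3c -0.17, Kif5c -0.82, Tuba8 -0.56, Tubb6 -0.94 and Tubgcp5 -0.61. With median centring, 4 did: Kif18a -0.12, Kif5c -0.15, Tubb6 -0.33 and Tubgcp5 -0.025. With quantile normalization, 7 did: Dync1i1 -0.26, Kif18a -0.31, Kif21a -0.15, Kif5c -0.38, Tuba8 -0.076, Tubb6 -0.50 and Tubgcp5 -0.085. With P4 set at 3 reads for genes at the floor, Kif20b (-0.61) and Kif2c (-0.20) turned negative. No other alternative reversed a named member.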
